A study of Mus musculus with 2 samples.

Results

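The genes described here are 8 components of the Hedgehog pathway, taken by their symbols from the 32285 genes listed in each count matrix: the ligands Shh and Ihh, the receptor Ptch1, the signal transducer Smo, the transcription factors Gli1, Gli2 and Gli3, and the ligand-binding inhibitor Hhip. They were followed in mouse pancreatic tumours grown from KPC cells, a pancreatic cancer line implanted orthotopically, that is, into the pancreas itself. The control library came from Porcnfl/fl littermates, which carry the floxed allele without Cre. The knockout library came from Csf1r-Cre;Porcnfl/fl mice, in which Cre driven by the Csf1r promoter is meant to delete Porcn, the enzyme that prepares Wnt proteins for secretion, in macrophages. All tumours were taken at day 21, and the tumours of 5 mice per genotype were pooled into 1 library of unsorted live cells. The labels used here give no age, and the implanted tumour cells themselves do not carry the host's alleles. The question put to the 8 genes was where ligand transcripts and where response transcripts were found, by cell class and library.

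Hedgehog ligands bind Ptch1, which otherwise holds Smo inactive. Freed Smo acts at the primary cilium and turns Gli2 and Gli3 from repressor into activator forms, and Gli1, Ptch1 and Hhip are themselves target genes, so that their transcripts are widely read as a sign of response. In pancreatic cancer the ligands are known to come mainly from epithelial tumour cells and the response mainly from fibroblasts of the stroma.

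The control library held 173934025 unique molecular identifiers (UMIs, each a counted transcript molecule) over 13766 barcodes, and the knockout library 137527647 UMIs over 12251 barcodes. After filtering, 11516 control and 10467 knockout cells were kept, with medians of 12167.5 and 10109 UMIs per cell. The libraries shared 46 barcodes. With 1 library per genotype there is no replicate and no test between genotypes. Levels are UMIs of a gene per 1000000 UMIs of a cell class (CPM). Intervals in parentheses are exact 95% counting intervals, Poisson for levels and conditional for knockout over control ratios, and they do not cover the spread between mice. Porcn itself had 8 UMIs in control and 4 in knockout monocyte/macrophage-like cells, 3.27 CPM (1.41 to 6.45) and 1.43 CPM (0.389 to 3.65), whose intervals overlap. The labels do not say which part of Porcn the allele removes, so its 3′ counts check neither label.

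Cell classes carry the ending "-like" because they were rebuilt here from marker genes. The epithelial/tumour-like class (7851 control and 4012 knockout cells) had Krt8 at 2153 and 2389 CPM and Krt19 at 2083 and 2382 CPM, while Epcam stood at only 8.64 and 31.2 CPM. Fibroblast-like cells (637 and 732) had all 10 fibroblast markers in both libraries, at a summed 42166 and 35441 CPM. A further 1592 control and 1865 knockout cells, nearly all from tumour-scoring clusters, stayed without a name and enter only the tumour sub-clusters, which cover 9434 control and 5785 knockout cells. T-like cells numbered 190 in the control and 1617 in the knockout library, so control T-like values rest on few cells.

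Ligand transcripts were scarce in these tumours. Shh, the ligand usually named in pancreatic cancer (ENSMUSG00000002633, chromosome 5, 28456815 to 28467256, minus strand, GRCm38), had no UMI in the whole control matrix and 2 in the knockout matrix. Both lay in epithelial/tumour-like cells of cluster 38, a group led by Dcdc2a and Ttr, and 1 of these cells fell into the small sub-cluster 12 led by the insulin genes Ins2 and Ins1. In the control tumour-scoring cells the limit that a count of 0 allows, 3 UMIs of the total, was 0.0200 CPM, against 0.0202 CPM (0.0024 to 0.0729) measured in the knockout cells. A difference in Shh between the libraries was therefore not detectable at this depth. In fibroblast-like cells Shh was at 0 in both libraries, with limits of 0.307 and 0.418 CPM.

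Ihh, the ligand best known from gut epithelium and bone (ENSMUSG00000006538, chromosome 1, 74945315 to 74951672, minus strand), had 22 UMIs in kept control and 3 in kept knockout cells. Epithelial/tumour-like cells held 20 of the control UMIs and 2 of the knockout UMIs, 0.174 CPM (0.106 to 0.268) and 0.0318 CPM (0.00386 to 0.115), a ratio of 0.183 (0.0208 to 0.754). Of the 4 Hedgehog members with at least 20 UMIs over both libraries in this class, Ihh alone was past 1.5-fold, downward. Ihh passed that floor through its 20 control UMIs, so its place in the count is not independent of its direction. Over all 16714 genes with 20 UMIs there, 6.37% were at least 1.5-fold lower in the knockout library and 9.45% at least 1.5-fold higher.

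Most of the control Ihh UMIs came from 1 small group of epithelial/tumour-like cells. Cluster 11, led by the intestinal genes Phgr1 and Lgals4, held 12 of the control UMIs at 1.49 CPM (0.769 to 2.60) in 355 cells. The knockout library had 70 cells of that cluster and no Ihh UMI, with a limit of 1.79 CPM, so the level within the cluster cannot be set apart between the libraries. Without cluster 11 the ratio in epithelial/tumour-like cells was 0.438. When tumour cells were sub-clustered, sub-cluster 10, led by the epithelial junction genes Epcam and Cldn3, held 10 Ihh UMIs in 202 control cells, 2.14 CPM (1.02 to 3.93), and 2 in 58 knockout cells, 1.24 CPM (0.150 to 4.48). Sub-cluster 10 scored 0.439 on the intestinal and 0.662 on the gastric mucous marker list. Its make-up differed between the libraries. Of its control cells 158 were from cluster 11 and 39 from cluster 38, and of its knockout cells 14 and 44, so that all 10 control UMIs lay in cluster 11 and both knockout UMIs in cluster 38. No other tumour sub-cluster had more than 5 UMIs in a library. Outside tumour cells Ihh gave 1 UMI in a control fibroblast-like cell and 1 in a knockout cell of the migratory dendritic type. Over the 19 pairs of class and library with at least 50 cells, the profiles most like that of Ihh were Psca (Pearson's r of 0.951), Nudt17 (0.907), Il15ra (0.888), Relb (0.883) and Cyyr1 (0.876). These units share their libraries. The profiles are of levels and not of UMI totals, and the highest Ihh level among these units was 2.42 CPM in knockout migratory DC-like cells. That level comes from 1 UMI, against 0.174 CPM in control epithelial/tumour-like cells, so the ranking leans on that 1 UMI.

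Hhip, a membrane-bound protein that captures Hedgehog ligands (ENSMUSG00000064325, chromosome 8, 79965851 to 80058006, minus strand), had 42 UMIs in kept control cells and none in kept knockout cells. Of these, 41 lay in tumour sub-cluster 9, in 22 cells with at most 5 UMIs each, which gives 5.61 CPM (4.02 to 7.61). Crabp2, Serpinf1, Bnc2 and the collagen gene Col3a1 are among the leading genes of that sub-cluster, and its control cells summed 3416 CPM over the epithelial markers and 702 CPM over the fibroblast markers. It held 280 control and 18 knockout cells. In those 18 knockout cells the limit of a 0 count was 10.1 CPM, above the control level, so the absence of Hhip there carries no difference in level. Fibroblast-like cells, a usual place of Hhip response, had no Hhip UMI in either library, with limits of 0.307 and 0.418 CPM.

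**Figure D1:**
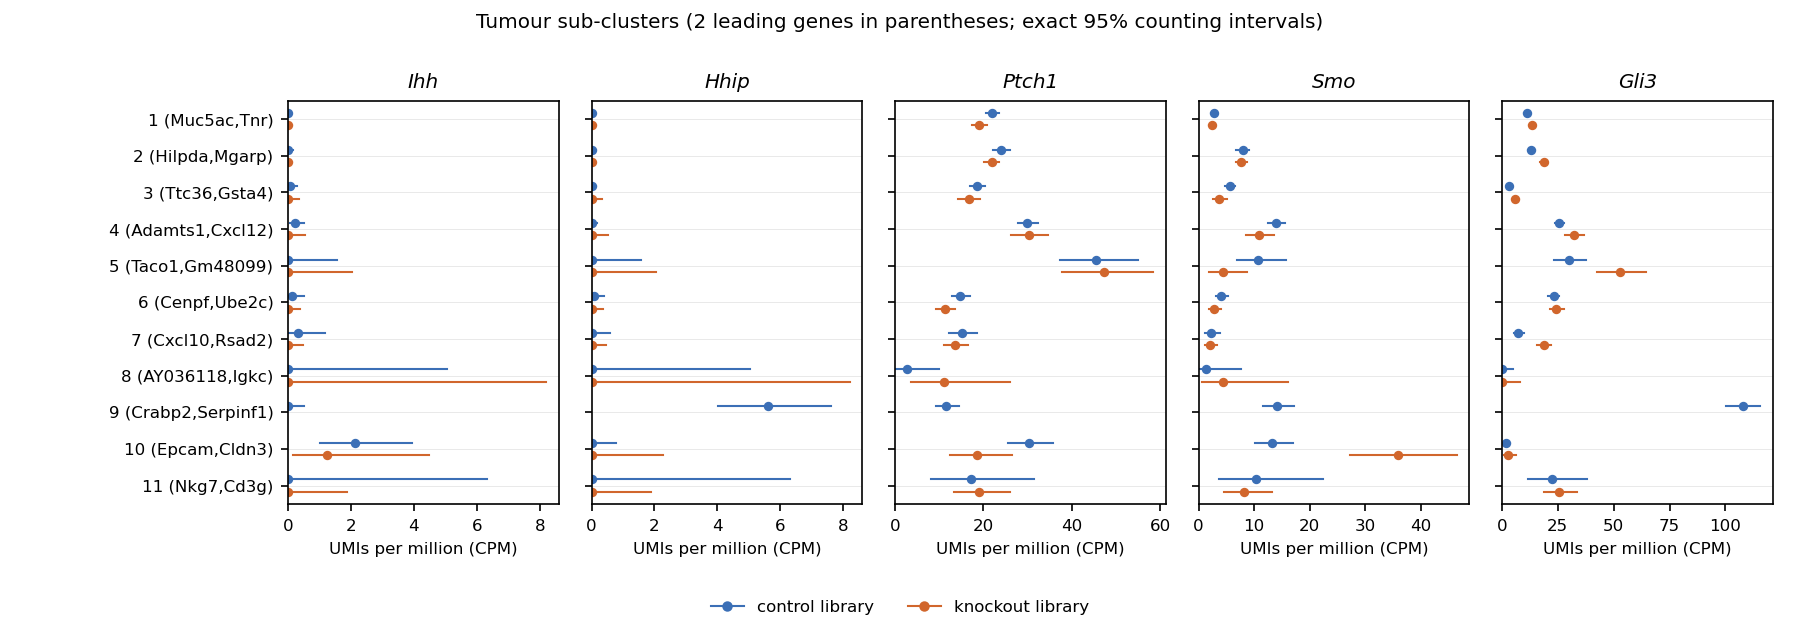
Levels of Ihh, Hhip, Ptch1, Smo and Gli3 (horizontal axes, CPM, scaled per gene) in tumour sub-clusters with at least 20 cells in the library (rows, with 2 leading genes), as points with exact 95% counting intervals, control in blue and knockout in orange. Ihh is highest in sub-cluster 10, Hhip is found in control cells of sub-cluster 9, and Gli3 is also highest there at 108 CPM.

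Ptch1, the receptor and a target of the pathway (ENSMUSG00000021466, chromosome 13, 63508328 to 63573598, minus strand), was found in nearly every class. Epithelial/tumour-like cells had 2592 control and 1233 knockout UMIs, 22.5 CPM (21.7 to 23.4) and 19.6 CPM (18.5 to 20.8), a ratio of 0.872 (0.814 to 0.933). Fibroblast-like cells stood lower, at 10.8 CPM (8.80 to 13) from 105 UMIs and 12.9 CPM (10.4 to 15.9) from 93 UMIs, a ratio of 1.20 (0.900 to 1.61). In both libraries the fibroblast and tumour intervals did not overlap, so this response gene was not highest in the fibroblast-like class. Endothelial-like cells had 39.2 CPM (20.2 to 68.4) and 41.8 CPM (18.0 to 82.3), from 12 and 8 UMIs. Mesothelial-like cells, few in number, had 6.26 CPM (1.71 to 16) from 4 UMIs and 38.5 CPM (19.9 to 67.3) from 12 UMIs. Their ratio was 6.15 (1.86 to 26.2), from fewer than 20 UMIs over both libraries.

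The highest Ptch1 levels among classes of at least 50 cells were in T-like cells. There Ptch1 had 38 control and 306 knockout UMIs, 57.2 CPM (40.5 to 78.5) and 45.3 CPM (40.4 to 50.7), a ratio of 0.792 (0.564 to 1.14). Across T-like clusters of the knockout library it was lowest in cluster 9, led by the naive T cell factor Lef1, at 19.0 CPM (12.5 to 27.7). It was highest in cluster 20, led by Themis, at 71.1 CPM (55.2 to 90.1), which overlaps cluster 33 at 64.0 CPM (48.9 to 82.4). Cluster 8, led by Cd8a, had 43.5 CPM (35.5 to 52.8), and cluster 15, led by the costimulatory receptor gene Tnfrsf4, 44.6 CPM (33.0 to 58.9), so these neighbours overlap. The control clusters 8, 15 and 20 had 53.7, 84 and 89.3 CPM from 19, 5 and 12 UMIs, each with an interval that overlaps the knockout value. Those of clusters 8, 15 and 20 stood above the knockout library, while the 11 control cells of cluster 33 stood below it, at 32.0 CPM (3.88 to 116) from 2 UMIs. The 19 control cells of cluster 9 had none.

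Other leukocytes had less Ptch1. Monocyte/macrophage-like cells had 7.36 CPM (4.36 to 11.6) and 7.14 CPM (4.36 to 11), neutrophil-like cells 1 UMI in control and 0 in knockout, and knockout B-like cells 10.7 CPM from 16 UMIs. After thinning every cell to 2000 UMIs, 10.4% of control and 6.77% of knockout T-like cells had a Ptch1 UMI, against 2.13% and 1.90% of monocyte/macrophage-like cells. Unthinned, the T-like shares were 15.8% and 14.2% and the monocyte/macrophage-like shares 3.14% and 2.74%. Median depths were 2821.5 and 3342 UMIs in T-like and 2873 and 4047.5 in monocyte/macrophage-like cells.

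The other members of the pathway were nearly missing beside Ptch1 in T-like cells. Gli1, Gli2 and Hhip had no UMI there in either library, with knockout limits of 0.444 CPM, Smo had 1 control and 7 knockout UMIs, and Gli3 had 3 and 7. Over all leukocyte-like cells together Gli1 and Gli2 were also at 0, with limits of 0.433 CPM in control and 0.168 CPM in knockout. Transcripts most like Ptch1 across the 19 pairs of class and library were Emg1 (r of 0.935), Psmg2 (0.931), Dars (0.923), Ssb (0.923) and 1190007I07Rik (0.918). Only genes with at least 200 UMIs in all could enter these lists of like genes, so Gli1, with 41, could not appear. The Ptch1 gene overlaps A930032L01Rik on the same strand, a transcript that the matrices do not count separately.

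**Figure D2:**
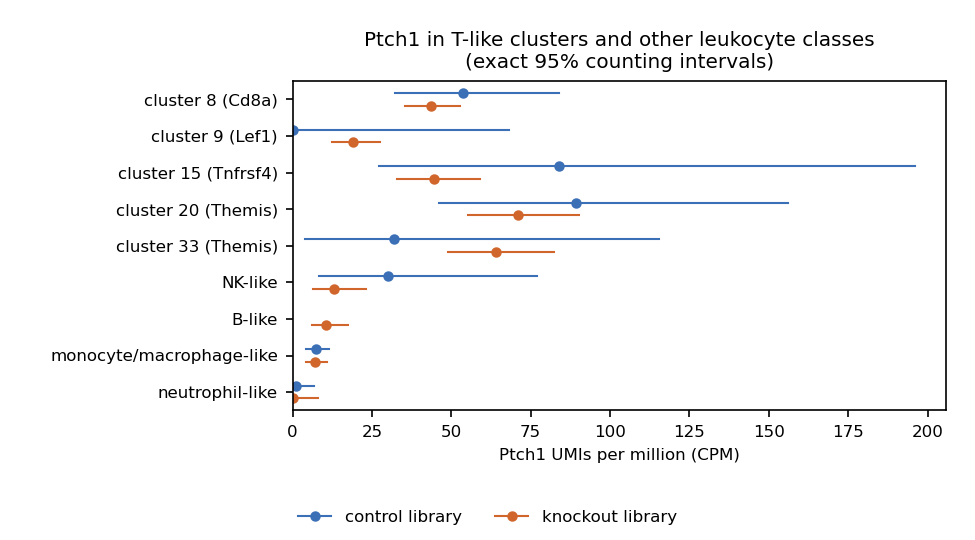
Ptch1 level (horizontal axis, CPM) in each T-like cluster and in NK-like, B-like, monocyte/macrophage-like and neutrophil-like cells (rows). Points carry exact 95% counting intervals for groups of at least 10 cells, control in blue and knockout in orange. The knockout value is lowest in the Lef1-led cluster at 19.0 CPM and highest in the Themis-led cluster 20 at 71.1 CPM, while monocyte/macrophage-like cells stay near 7 CPM.

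In tumour sub-clusters Ptch1 was present throughout. Sub-cluster 5, a group of low depth led by Taco1, was highest in both libraries, with 45.6 (37.3 to 55.1) and 47.2 CPM (37.7 to 58.4). Sub-cluster 4, led by Adamts1 and Cxcl12, had 30.0 CPM (27.8 to 32.3) and 30.2 CPM (26.3 to 34.6). The cycling sub-cluster 6 had 14.7 CPM (12.8 to 16.9) and 11.2 CPM (9.24 to 13.5). In the Ihh-bearing sub-cluster 10 the Ptch1 level was 30.3 CPM (25.5 to 35.7) for control and 18.6 CPM (12.5 to 26.5) for knockout cells, with intervals that barely overlap. Smo went the other way there. Its control level was 13.2 CPM (10.2 to 17) and its knockout level 35.9 CPM (27.3 to 46.5), 2.72 times the control level (1.87 to 3.95). Cluster 38, which makes up most of the knockout cells of sub-cluster 10 and fewer of its control cells, held 57 of the 58 knockout Smo UMIs and 27 of the 62 control ones. Over all cells of cluster 11, the knockout over control ratio was 0.549 (0.344 to 0.840) for Ptch1 and 0.515 (0.181 to 1.19) for Smo. Over all cells of cluster 38 it was 0.539 (0.310 to 0.942) for Ptch1 and 1.02 (0.637 to 1.68) for Smo. Ptch1 was thus lower in the knockout library within both clusters. The part of the difference in make-up in the values of sub-cluster 10 was not tested.

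Smo, the transducer (ENSMUSG00000001761, chromosome 6, 29735503 to 29761365, plus strand), was highest in mesothelial-like cells, with 76.7 (56.8 to 101) in the control and 119 CPM (83.6 to 164) in the knockout library. Fibroblast-like cells followed with 37.8 CPM (34.0 to 41.9) from 369 UMIs and 46.6 CPM (41.8 to 51.9) from 335 UMIs, a ratio of 1.23 (1.06 to 1.43). Pericyte-like cells of the control library had 33.1 CPM (18.1 to 55.5), which overlaps the fibroblast value. Epithelial/tumour-like cells had 6.98 CPM (6.51 to 7.48) and 4.92 CPM (4.39 to 5.50), a ratio of 0.704 (0.616 to 0.804). That ratio was short of 1.5-fold, and with tumour sub-clusters given the same weight in both libraries it was 0.935. Cluster 38, the group with the Shh UMIs, stood far above the class, at 38.8 CPM (25.6 to 56.5) and 39.7 CPM (30.1 to 51.5).

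Gli1, the most direct transcriptional readout of the pathway (ENSMUSG00000025407, chromosome 10, 127329882 to 127341974, minus strand), had 12 UMIs in kept control and 29 in kept knockout cells. Fibroblast-like cells held 9 and 21 of these, 0.922 CPM (0.422 to 1.75) and 2.92 CPM (1.81 to 4.47), a ratio of 3.17 (1.39 to 7.86). Their UMIs lay in 9 control and 18 knockout cells. The tumour-scoring cells held 3 and 6, at 0.0200 CPM (0.00412 to 0.0584) and 0.0606 CPM (0.0222 to 0.132), and 2 knockout mesothelial-like cells held 1 each. Gli1 is overlapped on the opposite strand by Arhgap9, and how the counting used strand is not given in the sources used here.

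Gli2, the main activator (ENSMUSG00000048402, chromosome 1, 118834132 to 119053619, minus strand), was counted mainly in fibroblast-like cells, which held 138 of 152 control and 171 of 174 knockout UMIs. There it had 14.1 CPM (11.9 to 16.7) and 23.8 CPM (20.4 to 27.6), a ratio of 1.68 (1.34 to 2.12). Control pericyte-like cells had 4 UMIs, 9.44 CPM (2.57 to 24.2), and epithelial/tumour-like cells only 8 control and 1 knockout UMIs. Gli3, mainly a repressor when ligand is absent (ENSMUSG00000021318, chromosome 13, 15463235 to 15730026, plus strand), had 640 and 888 UMIs in fibroblast-like cells, 65.6 CPM (60.6 to 70.9) and 124 CPM (116 to 132), a ratio of 1.88 (1.70 to 2.09). In epithelial/tumour-like cells it had 17.2 CPM (16.4 to 17.9) and 16.8 CPM (15.8 to 17.9), a ratio of 0.981 (0.909 to 1.06). Within most tumour sub-clusters Gli3 stood higher in the knockout library. Of the 10 sub-clusters with at least 20 cells in each library 9 had a higher knockout level, with ratios from 1.05 to 2.58. Sub-cluster 8 had no Gli3 UMI in either. The ratio intervals of sub-clusters 6, 10 and 11 included 1, and sub-cluster 11 was led by the lymphocyte genes Nkg7 and Cd3g. All these sub-clusters come from the same pair of libraries and are not replicates. Sub-cluster 7 had 7.30 CPM (5.32 to 9.76) and 18.8 CPM (15.9 to 22.1), sub-cluster 3 had 3.22 CPM (2.58 to 3.98) and 5.87 CPM (4.51 to 7.51), and sub-cluster 5 had 29.8 CPM (23.2 to 37.7) and 52.8 CPM (42.7 to 64.5), and these 3 were past 1.5-fold. With sub-clusters given the same weight in both libraries, the ratio in epithelial/tumour-like cells was 1.39. This weighting took only sub-clusters with at least 20 cells of the class in each library. It left out sub-cluster 9, where Gli3 was highest, at 108 CPM in 280 control and 131 CPM in 18 knockout cells. Monocyte/macrophage-like cells had 2 control and 1 knockout Gli3 UMIs. Plasma-like cells had 34 and 10, at 14.5 and 2.52 CPM, a ratio of 0.175 (0.0770 to 0.362).

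Of the 5 members with at least 20 UMIs in fibroblast-like cells, Gli1, Gli2 and Gli3 were at least 1.5-fold higher in the knockout library and none was as far lower. Over all 13446 genes with 20 UMIs in this class, 19.4% were that much higher and 13.7% that much lower. The median ratio of the 5 members was 1.68, against 1.06 for all genes. A ratio of this size was therefore common in the class, and 3 of 5 is a small count to set against it. Gli1 passed the floor through its 21 knockout UMIs, with 9 in control, so its place in the count is not independent of its direction. These are levels per 1000000 UMIs of the class, whose cells were also shallower in the knockout library, with medians of 9109.5 against 12747 UMIs.

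**Figure D3:**
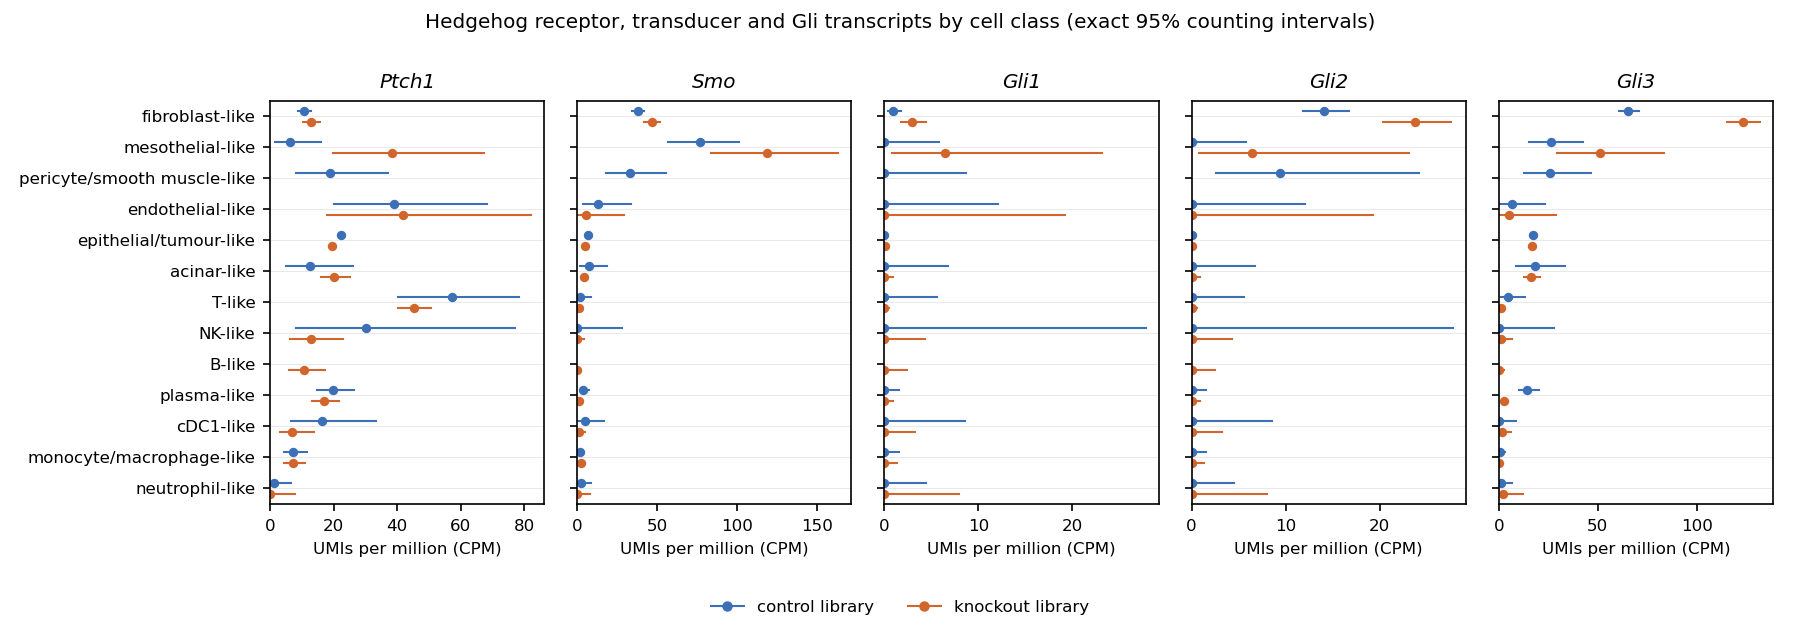
Levels of Ptch1, Smo, Gli1, Gli2 and Gli3 (horizontal axes, CPM, scaled per gene) in cell classes (rows, groups of at least 20 cells), as points with exact 95% counting intervals, control in blue and knockout in orange. Gli2 and Gli3 are highest in fibroblast-like cells, at 23.8 and 124 CPM in knockout, Smo in mesothelial-like cells, and Ptch1 in T-like cells without any Gli1 or Gli2.

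Over the whole fibroblast-like class Gli2 and Gli3 were both higher in the knockout library. With sub-clusters weighted alike, as described below, their ratios were 0.895 and 1.12. For both and for Ptch1, the RefSeq promoter table for GRCm38.p6 was searched for Gli-type letters. It holds windows from 250 bases before to 50 after a RefSeq start and has entries for 6 of the 8 members. Shh and Gli1 are not among them and were not searched. For Gli2 that start is the end of the gene span given above. For Gli3 and Ptch1 it lies 488 and 7863 bases inside the span, so their windows precede an internal start and overlap no annotated exon of the gene. Shown are the 250 bases before the RefSeq start for 3 members, 5′ to 3′ on the gene's strand, with capitals for the core ACCACCC on either strand.

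Gli2 (chr1:119053620-119053869, minus strand): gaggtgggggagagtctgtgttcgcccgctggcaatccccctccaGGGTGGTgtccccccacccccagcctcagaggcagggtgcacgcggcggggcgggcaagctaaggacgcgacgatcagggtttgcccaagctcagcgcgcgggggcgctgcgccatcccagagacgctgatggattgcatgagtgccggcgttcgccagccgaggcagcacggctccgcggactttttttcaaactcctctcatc

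Gli3 (chr13:15463473-15463722, plus strand): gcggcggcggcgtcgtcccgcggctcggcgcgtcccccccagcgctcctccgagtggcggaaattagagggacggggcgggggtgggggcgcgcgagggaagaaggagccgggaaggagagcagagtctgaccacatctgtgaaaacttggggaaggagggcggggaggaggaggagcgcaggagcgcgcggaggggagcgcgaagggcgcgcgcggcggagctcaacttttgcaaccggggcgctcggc

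Ptch1 (chr13:63565736-63565985, minus strand): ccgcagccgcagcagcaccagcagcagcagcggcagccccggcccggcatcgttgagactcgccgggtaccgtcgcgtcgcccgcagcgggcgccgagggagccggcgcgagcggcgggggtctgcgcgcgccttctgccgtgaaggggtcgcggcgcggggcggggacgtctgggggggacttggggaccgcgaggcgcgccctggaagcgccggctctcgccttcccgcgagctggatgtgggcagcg

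The full letters GACCACCCA, read on both strands, occur in 0.253% of all 32851 windows and in none of the 6 members' windows. The 7-base core, which lies inside the full letters, occurs in 4.61% of windows and, among the members, in Gli2 alone, where it starts at base 46 as GGGTGGT on the printed strand. The windows of Gli2, Gli3 and Ptch1 had 67.3%, 71.0% and 76.3% G or C. A match is a description of letters and not a bound site.

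Fibroblast-like cells were not one population, and the libraries held different mixtures of them. Control cells were numerous in sub-cluster 4 (173 control and 23 knockout cells, antigen-presenting-like, led by Clca3a2), in sub-cluster 6 (111 and 1, adventitial-like, led by Efhd1 and Islr2) and in sub-cluster 7 (73 and 26, led by tumour-type genes and without a name). Knockout cells were numerous in sub-cluster 1 (63 and 213, inflammatory-like, led by Chrm3 and Rspo3), in sub-cluster 3 (41 and 174, myofibroblastic-like, led by Scel and Lama1) and in sub-cluster 5 (36 and 134, adventitial-like, led by Efhd1 and Bmp6). Sub-cluster 2, led by Fndc5, had 99 and 141.

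Gli3 was highest in sub-clusters 1 and 3 of both libraries. Sub-cluster 1 had 156 (123 to 195) and 162 CPM (144 to 181), control first, and sub-cluster 3 had 154 CPM (125 to 188) and 138 CPM (122 to 154). Sub-cluster 4, the largest among control cells, had 61.6 CPM (53.1 to 71.1) and 68.8 CPM (40.1 to 110), and sub-cluster 6 had 61.2 CPM (49.3 to 75.2) in control. Sub-cluster 2 had 50.1 CPM (35.9 to 67.9) and 61.2 CPM (46.2 to 79.5). Sub-cluster 5 was at 83.6 CPM (55.5 to 121) and 129 CPM (110 to 150). The tumour-gene sub-cluster 7 was at 36.3 CPM (28.1 to 46.1) and 65.9 CPM (45.6 to 92.1), barely overlapping. The knockout over control ratios of sub-clusters 5 and 7 were 1.54 (1.03 to 2.39) and 1.82 (1.17 to 2.78). Of the 6 sub-clusters with at least 20 cells in each library 5 had a higher knockout level and 1 a lower one. The ratio intervals of sub-clusters 1, 2, 3 and 4 included 1. The sub-clusters in which knockout cells were numerous, 1, 3 and 5, had the 3 highest Gli3 levels in both libraries among the 6 with at least 20 cells in each.

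Gli2 was also highest in sub-clusters 1 and 3. It had 42.0 CPM (26.0 to 64.3) and 34.4 CPM (26.5 to 44.0) in sub-cluster 1, and 55.1 CPM (38.4 to 76.7) and 30.0 CPM (23.1 to 38.4) in sub-cluster 3. In sub-cluster 2 it had 19.5 CPM (11.2 to 31.7) and 12 CPM (6.0 to 21.5), and in sub-cluster 5 20.9 CPM (8.40 to 43) and 15.9 CPM (9.87 to 24.4). Each of these 4 knockout values was the lower, and the intervals overlapped except in sub-cluster 3, where they just failed to meet. In sub-cluster 4 Gli2 was at 4.26 CPM (2.27 to 7.29) among control cells and, from 6 UMIs, at 24.3 CPM (8.91 to 52.9) among knockout cells, without overlap, and in sub-cluster 7 at 5.41 CPM (2.60 to 9.96) and 7.75 CPM (2.11 to 19.8). Giving the 6 sub-clusters with at least 20 cells in each library the same weight in both turned the Gli2 ratio from 1.68 to 0.895.

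With the same weighting, the Gli3 ratio moved from 1.88 to 1.12 and the Gli1 ratio from 3.17 to 1.70, while Smo stood at 1.19 and Ptch1 at 1.37. Without sub-cluster 4 the Gli2 ratio was 1.28. Gli1 UMIs fell in sub-clusters 2 (1), 3 (3), 4 (1) and 6 (4) of the control library and in sub-clusters 1 (9), 2 (3), 3 (6), 5 (2) and 6 (1) of the knockout library. Sub-cluster 1 had none in 63 control cells, with an interval up to 7.39 CPM that contains the knockout value of 4.84 CPM (2.22 to 9.20). No single sub-cluster therefore set the libraries apart for Gli1 beyond counting error.

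**Figure D4:**
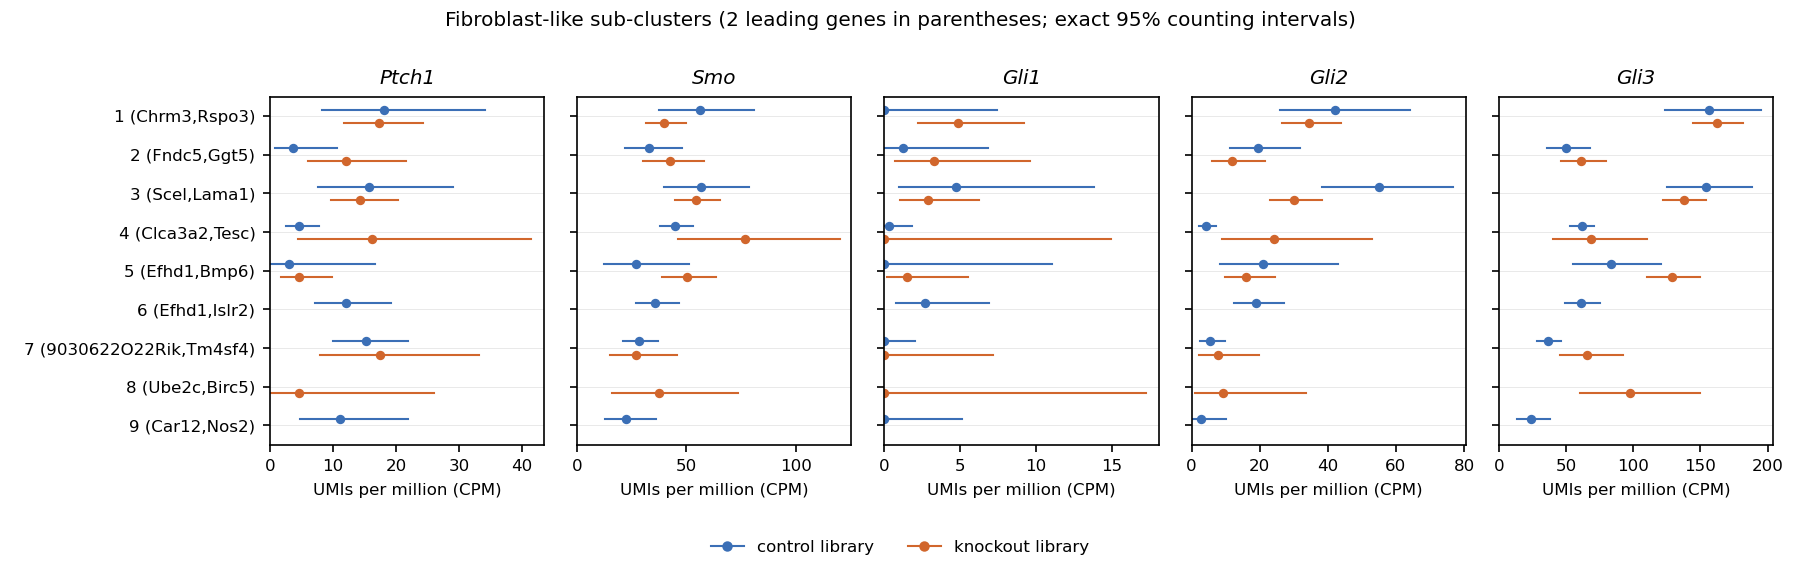
Levels of Ptch1, Smo, Gli1, Gli2 and Gli3 (horizontal axes, CPM, scaled per gene) in fibroblast-like sub-clusters with at least 20 cells in the library (rows, with 2 leading genes), as points with exact 95% counting intervals, control in blue and knockout in orange. Gli2 and Gli3 are highest in sub-clusters 1 and 3, and the Gli2 intervals of the libraries overlap within sub-clusters 1, 2 and 5.

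Ptch1 and Smo also differed between sub-clusters. Ptch1 ran from 2.99 CPM in sub-cluster 5 to 18.0 CPM in sub-cluster 1 of the control library, and from 4.55 to 17.4 CPM, in sub-clusters 5 and 7, of the knockout library, among those with at least 20 cells in each. Smo ran from 26.9 to 56.7 CPM in control and from 27.1 to 76.9 CPM in knockout. Sub-cluster 7 had 3197 and 2050 CPM summed over the epithelial markers, against 77 to 199 CPM in sub-clusters 1 to 5, and the part of tumour RNA in its Ptch1 of 15.2 and 17.4 CPM was not tested. Over the whole class the summed epithelial markers were 760 CPM in control and 241 CPM in knockout.

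The share of fibroblast-like cells with a UMI gave a narrower picture than the levels. After thinning to 2000 UMIs, 10.6% of control (8.27 to 13.3) and 18.8% of knockout cells (16 to 21.9) had a Gli3 UMI. For Gli2 the shares were 3.75% (2.39 to 5.57) and 4.02% (2.69 to 5.75), and for Ptch1 2.44% (1.37 to 4.0) and 3.30% (2.10 to 4.91). Smo was seen in 8.63% (6.53 to 11.1) and 8.32% (6.38 to 10.6). Unthinned, the Gli3 shares were 50.5% and 55.5% and the Gli2 shares 15.2% and 14.2%. In monocyte/macrophage-like cells, thinned alike, 0.304% of control and 0% of knockout cells had a Gli3 UMI, and none had a Gli2 UMI. Thus Gli3 was above that background and higher in the knockout library by share as well as by level, whereas the Gli2 shares overlapped. Ptch1 was set apart from the same background less well. Its thinned monocyte/macrophage-like share, given earlier, fell inside the fibroblast-like interval for control and below it for knockout. By level, the background of 7.36 and 7.14 CPM, control first, stood against 10.8 and 12.9 CPM, and the counting intervals met in each library.

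Gli1 and Ptch1 transcripts were found together in some fibroblast-like cells. Of the 9 control cells with a Gli1 UMI, 4 (44.4%) also had a Ptch1 UMI, against 11% of the other 628 cells. Of the 18 knockout cells with a Gli1 UMI, 7 (38.9%) had Ptch1, against 9.52% of the other 714. In control the Gli1 cells were deeper, with a median of 16215 against 12558 UMIs, and in knockout the depths were close, 9174.5 against 9109.5. Gli2 was found in 4 of the 9 and 8 of the 18, 44.4% in both libraries, against 14.8% and 13.4% of the rest. Smo and Gli3 did not stand out alike in both libraries. In control each was in 66.7% of the Gli1 cells, against 38.7% and 50.3% of the rest. In knockout Smo was in 38.9% against 34.3%, and Gli3 in 50% against 55.6%. These counts come from 27 cells and are descriptions. Across the 19 pairs of class and library the genes most like Gli1 were Duoxa1 (r of 0.990), Lama1 (0.988), Snhg11 (0.986), Slc10a6 (0.986) and Rspo3 (0.986), where fibroblast-like cells dominate every profile.

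The wider pathway was read from a list of 48 further genes. In fibroblast-like cells 40 had at least 20 UMIs, 13 were at least 1.5-fold higher in the knockout library and 2 as far lower, beside 19.4% and 13.7% of all genes. Their median ratio was 1.26, against 1.06 for all genes. With sub-clusters weighted alike 4 of the 40 were higher and 1 lower, beside 9.64% and 9.01% of all genes under the same weighting. The higher were Efcab7, Scube2, Foxf2 and Hhat, and Ccnd1 was the lower. Foxf2 was not among the 13, with a class ratio of 1.22 (0.610 to 2.43) from 20 control and 18 knockout UMIs. Only the weighting put it at 1.78.

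Among ligand handling genes, Scube2, which helps to release the lipid-bearing ligand, had 25 control and 78 knockout UMIs, 2.56 and 10.9 CPM, a ratio of 4.24 (2.67 to 6.94). Hhat, the enzyme that adds palmitate to the ligand, had a ratio of 2.08 (1.60 to 2.72), and Disp1, the ligand exporter, 0.924 (0.789 to 1.08). Weighted alike, Scube2 stood at 1.85 and Hhat at 1.74. In the receptor group, the proteoglycan gene Gpc3, whose product competes for ligand, went from 77.8 to 213 CPM, a ratio of 2.73 (2.50 to 2.99), and the co-receptors Boc and Cdon had ratios of 2.10 (1.80 to 2.45) and 1.70 (1.58 to 1.84). The co-receptor Gas1 had 1.05 (0.992 to 1.12). Under equal weighting the ratios were 1.48 for Gpc3, 1.23 for Boc and 0.921 for Cdon, so Cdon changed its direction.

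In the signal transduction group 4 of 14 were higher, beside 19.4% of all genes. They were Efcab7, Iqce, Evc2 and Evc, which belong to the Evc module at the base of the cilium. Efcab7 kept its ratio of 2.17 (1.48 to 3.23) under equal weighting, at 2.18, while Iqce, Evc2 and Evc, at 1.55, 1.55 and 1.51, moved to 1.40, 1.24 and 1.12. Sufu, the main inhibitor of Gli proteins, had a ratio of 1.08 (0.862 to 1.35). Of the 11 cilium genes 2 were higher, close to that 19.4%, Tmem67 at 1.66 (1.17 to 2.35) and Bbs1 at 1.55 (0.905 to 2.68). Equal weighting moved them to 1.20 and 1.24. Other targets went both ways. Bcl2, an antiapoptotic gene, had a ratio of 2.70 (2.24 to 3.27), while the cell cycle gene Ccnd1 went from 91.3 to 27.6 CPM, a ratio of 0.302 (0.257 to 0.353), and Snai1 had 0.658 (0.548 to 0.787). Equal weighting put Bcl2 at 1.45, Ccnd1 at 0.612 and Snai1 at 0.751.

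**Figure D5:**
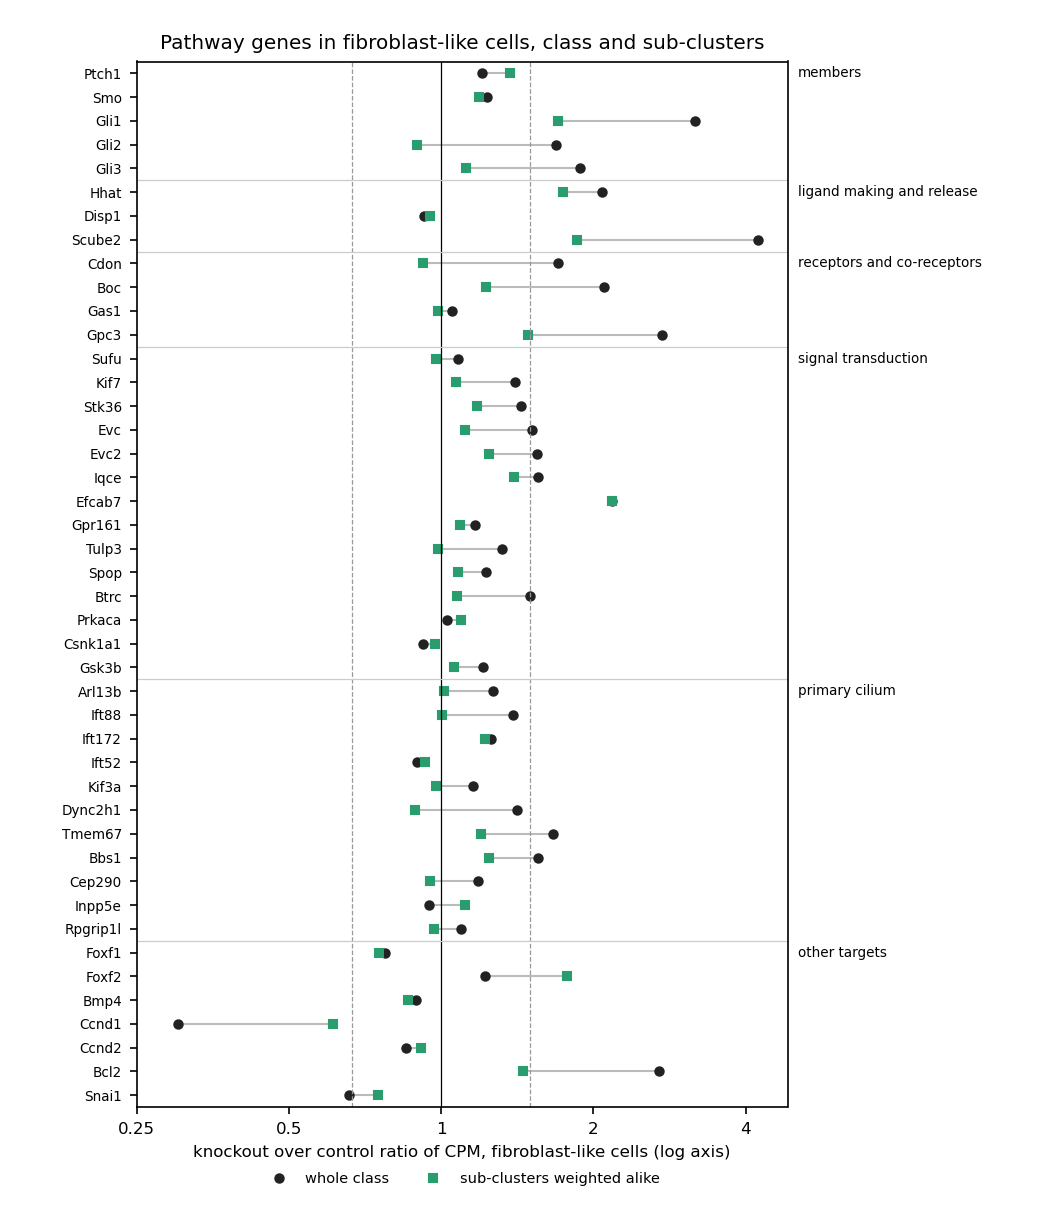
Knockout over control ratio of CPM (horizontal log axis) in fibroblast-like cells for members and listed pathway genes with at least 20 UMIs (rows, grouped by role), black circles for the whole class and green squares with sub-clusters weighted alike, dashed lines at 1.5-fold up and down. For most genes the square lies nearer to 1 than the circle, as for Gli3 at 1.12 against 1.88, while Efcab7 stays at 2.18.

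In epithelial/tumour-like cells the listed genes moved less. Of 40 with at least 20 UMIs 1 was higher and 4 lower, beside 9.45% and 6.37% of all genes, with a median ratio of 0.975 against 0.978. The higher gene was Gpc5, at 0.113 and 0.685 CPM. The lower genes were Mycn at 3.87 and 1.51 CPM, a ratio of 0.390 (0.309 to 0.488), Snai1 at 0.510 (0.398 to 0.646), Kif7 at 0.581 (0.359 to 0.913) and Bmp4 at 0.635 (0.580 to 0.694). In T-like cells 25 listed genes were counted, with 2 higher and 5 lower, beside 16.4% and 12.4% of all genes. In monocyte/macrophage-like cells 21 were counted, with none higher and 3 lower, beside 8.52% and 10.8%. Among members, only Ptch1 reached 20 UMIs in these latter 2 classes.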

How the data were processed

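The matrices are raw UMI counts per gene and barcode, deposited without normalisation. Per the file headers they were made with Cell Ranger 8.0.0. The submitters' processing notes name Cell Ranger 3.1.3 and mm10. Whether intronic reads were counted is not given in the sources used here.

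Barcodes under 500 genes or over 15% mitochondrial UMIs were removed, and doublets called by Scrublet in scanpy 1.11.5 (expected rate 0.08) were left out (148 control, 341 knockout). Counts were clustered on 2000 variable genes without the pathway genes (30 components, 15 neighbours, Leiden resolution 1). Stromal and leukocyte clusters were clustered again, and tumour and fibroblast cells sub-clustered at 0.5. Clusters were named from 21 marker lists, with a scoring rule set after the clusters were seen. The members and lists were chosen with earlier results of these data known.

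UMIs were summed per class and library. Intervals cover counting error only (scipy 1.17.1; Clopper-Pearson for shares). A 0 count allows 3 UMIs of the total. Ratios were checked on simulated counts. All 8 members are named, with up to 4 genes of largest fold per pathway list among those with 20 UMIs, the 5 profiles most like Ihh, Ptch1 and Gli1 (not Shh, with 2 UMIs), and genes such as Disp1, Gas1 and Sufu added after their values were seen. Alternatives were other cell filters, resolutions, scalings, weightings and thinning depths. A further gene of the lists is counted but not reported here.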

Additional observations from a re-analysis of the deposited data

How the results depend on the processing

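Of 148 alternative values, 126 stayed within the counting interval of the reported value or within 1.5 times the reported count. Equal weighting of sub-clusters turned the fibroblast-like Gli2 ratio to 0.895, below 1, and gave 1.12 for Gli3. In epithelial/tumour-like cells it gave 0.935 for Smo and 1.39 for Gli3, with tumour sub-cluster 9 left out for its few knockout cells. Averaging over cells gave 1.11 for Gli2 and 1.67 for Gli3 in fibroblast-like cells, 1.12 for Gli3 in epithelial/tumour-like cells, and 0.0373 against 0.183 for Ihh. Without fibroblast sub-cluster 4, an alternative chosen after seeing the data like the other omissions of clusters and the weighting of counts and T-like clusters, Gli2 was 1.28. The fibroblast-like Gli1 ratio kept its direction, between 1.70 with sub-clusters weighted alike and 4.22 without sub-clusters 6 and 9.

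Differences in the share of fibroblast-like cells with a UMI, in percentage points, depended on depth. Unthinned they were -1.21 for Ptch1, against 0.857 when thinned, -4.66 for Smo and 1.05 for Gli1. Thinned to 5000 UMIs they were 4.23 for Smo, against -0.311, 2.90 for Gli2 and 12.7 for Gli3.

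Counts of listed genes moved with the rule. At 2-fold, 6 were higher and 1 lower in fibroblast-like cells, beside 8.26% and 7.32% of all genes, and 1 lower in epithelial/tumour-like cells, beside 2.84%. Without the filter on low counts, 6 were lower in fibroblast-like cells (22.2% of all genes), and 4 higher and 7 lower in epithelial/tumour-like cells (19.8% and 15.3%). Weighted alike, 4 were higher and 1 lower in fibroblast-like cells. The causes were not tested beyond what each alternative removes.

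No paired analysis was possible because each genotype has 1 library. Gli1, Ihh, Hhip and Shh rest on 42 UMIs or fewer in a library, and the spread between mice is unknown, since 5 were pooled per library.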
